A study of Mus musculus with 2 samples.

Results

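The 7 hairpin loci described here are Mir764, Mir1912, Mir1264, Mir1298 and Mir448, which lie in introns of the serotonin receptor gene Htr2c, together with Mir204 in an intron of Trpm3 and Mir211 in an intron of Trpm1. They were chosen by gene symbol, and all 7 had a row among the 1973 loci of the tables. The tissue was midbrain of B6NCrl mouse embryos at 13.5 days, male and female embryos pooled, with no treatment, and small RNA under 30 nt was sequenced. The study holds 1 group of 2 biological replicates with 1 library each, so no conditions can be compared. Both replicates carry the same donor record, and no source used here says whether their embryos came from separate litters.

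MicroRNAs are very short RNAs that guide the silencing of messenger RNAs, mostly through pairing of the seed, bases 2 to 8 of the mature strand, which is cut from one arm of a hairpin. Intronic hairpins can be transcribed with their host gene or from promoters of their own, and which applies to these loci was not measured. Htr2c encodes the 5-HT2C receptor, which is abundant in the epithelium of the choroid plexus, the tissue that secretes cerebrospinal fluid, and is also made by some neurons. miR-204 is known from choroid plexus, retinal pigment epithelium and lens, and its relative miR-211 from pigment cells. Choroid plexus lies in the ventricles of the forebrain and hindbrain, on either side of the midbrain. The matched rows of the tables are all microRNA genes, 1894 of them, so no messenger RNA marker of choroid plexus epithelium was measured. Whether the counts below came from such cells was not tested.

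The mature sequences are shown because they group the loci. They are from RefSeq on GRCm38.p6, 5′ to 3′, 1 strand per hairpin, with the seed in capitals, and the table held 12 mature strands for the 7 loci.
miR-204-5p: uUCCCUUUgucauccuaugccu
miR-211-5p: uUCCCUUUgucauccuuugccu
miR-1298-5p: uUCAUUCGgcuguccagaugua
miR-448-3p: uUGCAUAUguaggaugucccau
miR-1264-3p: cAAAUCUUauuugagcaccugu
miR-1912-3p: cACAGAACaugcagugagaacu
miR-764-5p: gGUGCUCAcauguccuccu

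miR-204-5p and miR-211-5p shared the seed UCCCUUU and 21 of 22 bases. The single difference was A17U, counted from 1 at the 5′ end of miR-204-5p. The mature strands of the Htr2c hairpins shared no seed with each other or with miR-204 and miR-211. Counting the other arms too, the remaining loci with a seed in common were Mir7670 (seed of miR-204-5p and miR-211-5p), Mir7062 (seed of miR-764-3p) and Mir7684 (seed of miR-204-3p). Mir7670 had 1 count in each library, Mir7062 had 4 and 1, and Mir7684 had 0 in both. Among loci with the seed UCCCUUU, Mir204 thus held nearly all counts, though the tables do not separate the arm with this seed from the other arm.

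The longest exact run that a mature strand of the Htr2c hairpins shared with another of the 1005 hairpins searched was 12 nt. For miR-204-5p and miR-211-5p it was 16 nt, with each other. A read cut short before base 17 of either strand could come from both loci, and multimapping reads are left out of every locus.

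Counts in the tables are per hairpin, so both arms of a hairpin fall in 1 value. The hairpins of the leading loci are given with the annotated mature strands in capitals to show what 1 count covers.
Mir204: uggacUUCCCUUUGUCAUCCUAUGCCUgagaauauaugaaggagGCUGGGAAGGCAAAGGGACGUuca
Mir1298: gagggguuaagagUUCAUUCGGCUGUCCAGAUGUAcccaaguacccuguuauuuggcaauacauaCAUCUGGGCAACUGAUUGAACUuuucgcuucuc
Mir448: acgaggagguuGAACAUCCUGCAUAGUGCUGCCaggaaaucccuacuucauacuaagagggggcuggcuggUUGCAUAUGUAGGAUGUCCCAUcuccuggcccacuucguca

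On mm10, Htr2c lies on the plus strand of the X chromosome from 146962513 to 147197277. In transcript Htr2c-202, with 7 exons, intron 3 is 85268 nt long and holds Mir764 (147002259 to 147002366), Mir1912 (147009441 to 147009527), Mir1264 (147010601 to 147010686) and Mir1298 (147064905 to 147065002). Mir448 (147158210 to 147158321) lies in intron 5, of 93522 nt. Mir1912 and Mir1264 are 1073 nt apart, whereas 54218 nt separate Mir1264 from Mir1298 and 93207 nt separate Mir1298 from Mir448. Another 2 loci annotated as microRNAs inside Htr2c, Gm22650 and Gm24627, had 0 counts in both libraries. Mir211 lies on chromosome 7 from 64205806 to 64205911, in intron 6 of Trpm1-201. Mir204 lies on chromosome 19 from 22750605 to 22750672, in intron 6 or 7 of Trpm3, depending on the transcript. Its identifier is a later version in the annotation used here than in the tables, so the span counted may differ from this one. No member overlapped an exon of a protein-coding transcript of its host.

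**Figure D1:**
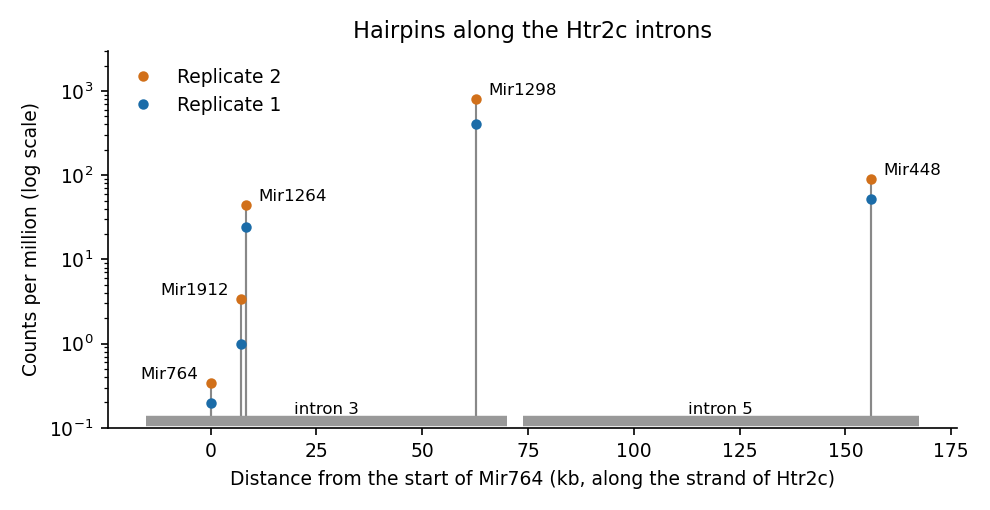
Level of each Htr2c hairpin (CPM, counts scaled to 1000000 same-strand counts in each library, on a log axis) against its distance in kb from the start of Mir764, with introns 3 and 5 of Htr2c-202 as grey bars and the 2 replicates as coloured points. Mir1298 stands above the other 4 hairpins in both libraries, and it, Mir448, Mir1264 and Mir1912 are higher in replicate 2.

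Replicate 1 held 5093743 same-strand counts (reads in the orientation of the gene) and replicate 2 had 2935841. A count of 0 would allow up to 0.589 and 1.02 CPM, from 3 counts. Multimapping reads were 34.4% and 37.7% of all reads. No member had a count on the opposite strand in either library. Intervals are 95% exact Clopper-Pearson intervals and cover counting error only, since the tables carry no molecular identifiers.

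Mir204, whose 5p arm shares its seed with miR-211-5p, was the highest member. It held 3747 counts in replicate 1 and 2989 in replicate 2, or 736 and 1018 CPM (877 ± 200, SD, n = 2). It ranked 96 of 1973 loci by mean level.

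Mir211 held 82 and 59 counts, or 16.1 and 20.1 CPM (18.1 ± 2.83, SD, n = 2). Relative to Mir204 in the same library it stood at 2.19% (1.74 to 2.72) in replicate 1 and 1.97% (1.5 to 2.55) in replicate 2. The quotient of the second percentage to the first was 0.902 (0.632 to 1.28), so a difference between the libraries in this proportion was not detectable at this depth. Mir204 thus exceeded its seed partner 45.7-fold and 50.7-fold.

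Among the Htr2c hairpins, Mir1298 held 2089 and 2354 counts, or 410 and 802 CPM (606 ± 277, SD, n = 2). Replicate 1 was the deeper library and yet had fewer counts of Mir1298. Mir448, reported to restrain fat cell formation, held 265 and 261 counts, or 52.0 and 88.9 CPM (70.5 ± 26.1, SD, n = 2). Mir1264 held 124 and 129 counts, or 24.3 and 43.9 CPM (34.1 ± 13.9, SD, n = 2). For both loci the libraries differed in the same direction as for Mir1298.

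The remaining hairpins of the cluster were at the edge of detection. Mir1912 had 5 counts in replicate 1 and 10 in replicate 2, or 0.982 CPM (0.319 to 2.29) and 3.41 CPM (1.63 to 6.26). Mir764 had 1 count in each library, under the level that 0 counts would allow, and no fold is given for it. Mir764 and Mir1912 share intron 3 with Mir1298, which had 418 and 235 counts for each count of Mir1912 in replicates 1 and 2.

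In order of mean level the loci were Mir204, Mir1298, Mir448, Mir1264, Mir211, Mir1912 and Mir764. The values of Mir204 and Mir1298 overlapped across libraries, since 802 CPM of Mir1298 in replicate 2 exceeded 736 CPM of Mir204 in replicate 1. Within each library Mir204 was the higher of the pair, 1.79-fold in replicate 1 and 1.27-fold in replicate 2. Mir1298 and Mir448, Mir448 and Mir1264, Mir1264 and Mir211, and Mir211 and Mir1912 did not overlap over the 2 libraries. The values of Mir1912 also lay above those of Mir764, which had 1 count in each library. Their counting intervals overlapped in each library, and the order of that pair was not tested.

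**Figure D2:**
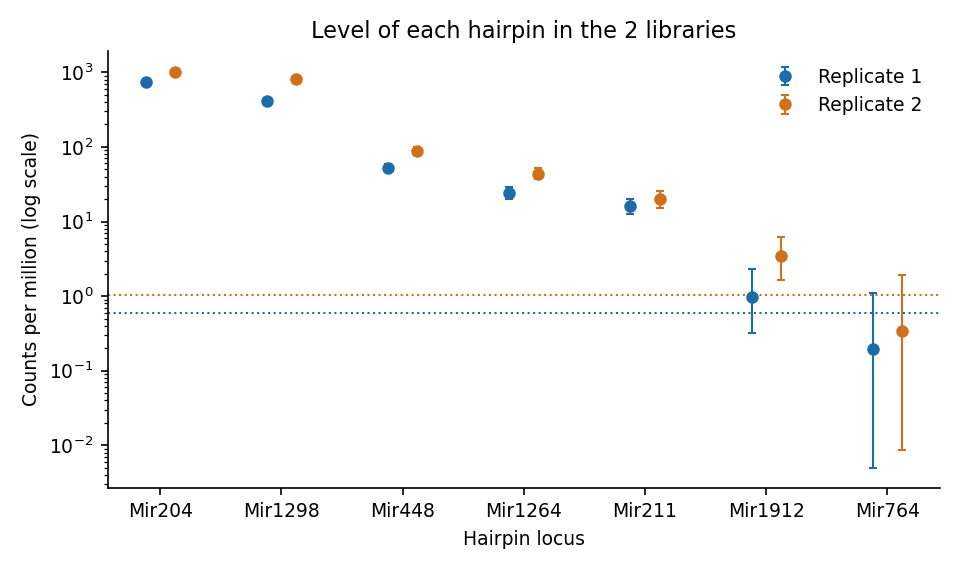
Level of each of the 7 loci (CPM, log axis) in replicates 1 and 2, with 95% exact Clopper-Pearson intervals for counting error, and dotted lines at the level of 3 counts in each library. Mir204 and Mir1298 are the highest pair in both libraries, from 410 to 1018 CPM, and Mir764 lies below both lines.

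Replicate 2 held more of the cluster than replicate 1. The 5 Htr2c hairpins together had 2484 counts in replicate 1 (488 CPM) and 2755 in replicate 2 (938 CPM). After scaling with TMM factors (trimmed mean of M-values, which corrects for a few very abundant loci), the sum was 2.02-fold higher in replicate 2 (1.91 to 2.13). Mir1298 was 2.05-fold higher (1.93 to 2.17), Mir1264 1.89-fold (1.47 to 2.44) and Mir448 1.79-fold (1.5 to 2.13). Mir1912 was 3.63-fold higher, with an interval of 1.13 to 13.6 from its 15 counts.

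The point estimates for Mir204 and Mir211 were smaller. Mir204 was 1.45-fold higher in replicate 2 (1.38 to 1.52). Mir211 stood at 1.31-fold (0.919 to 1.85), an interval that includes no difference. This interval also overlaps those of Mir448 and Mir1264, and whether Mir211 differed less than the cluster hairpins was not tested.

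The libraries were compared locus by locus with a two-sided exact conditional binomial test, and p-values were adjusted by the Benjamini-Hochberg method over the 466 loci with at least 10 counts. This test compares 2 libraries of 1 group and takes in no spread between animals. Of the 7 members 6 were tested, and 5 were called, all higher in replicate 2. Over all tested loci 38.0% were called and 19.3% were called higher in replicate 2. Both the share and the call of Mir204 depended on the absence of a minimum fold. With a difference of at least 1.5-fold required as well, a rule added after seeing the data, 7.30% of loci were called (34 of 466) and 3.43% were called higher in replicate 2. The Mir204 call ended, which left 4 members called. The 4 tested Htr2c hairpins lie in 1 host gene and are not independent of each other, so the count of members is not a count of separate events. In this exact test the adjusted p was 1.83e-123 for Mir1298, 1.12e-49 for Mir204, 2.42e-10 for Mir448 and 2.54e-06 for Mir1264. For Mir1912 it was 0.0406, and the call ended with total counts only (exact test, adjusted p = 0.0665) and with no filter (0.10). Mir211 did not pass (adjusted p = 0.258).

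Calls were common, so the size of each difference is given beside that of all loci. The log2 ratio of replicate 1 to replicate 2 was -1.03 for Mir1298, -0.90 for Mir1264, -0.83 for Mir448, -0.54 for Mir204 and -1.45 for the sparse Mir1912, on the scale of log2(CPM + 0.5). The median was -0.87 over the 6 tested members and 0.00 over all 466 loci. Among the 205 loci with a mean of at least 100 CPM the SD of this ratio was 0.31, and 2 loci lay below Mir1298 and 5 below Mir204. Of all tested loci, 14 lay below Mir1298, 17 below Mir1264 and 21 below Mir448, and these counts take in loci of low counts, whose ratios scatter widely. For Mir211, with a ratio of -0.38, the number was 73. Members were not left out of these numbers, so Mir1298 is among the 5 loci below Mir204.

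**Figure D3:**
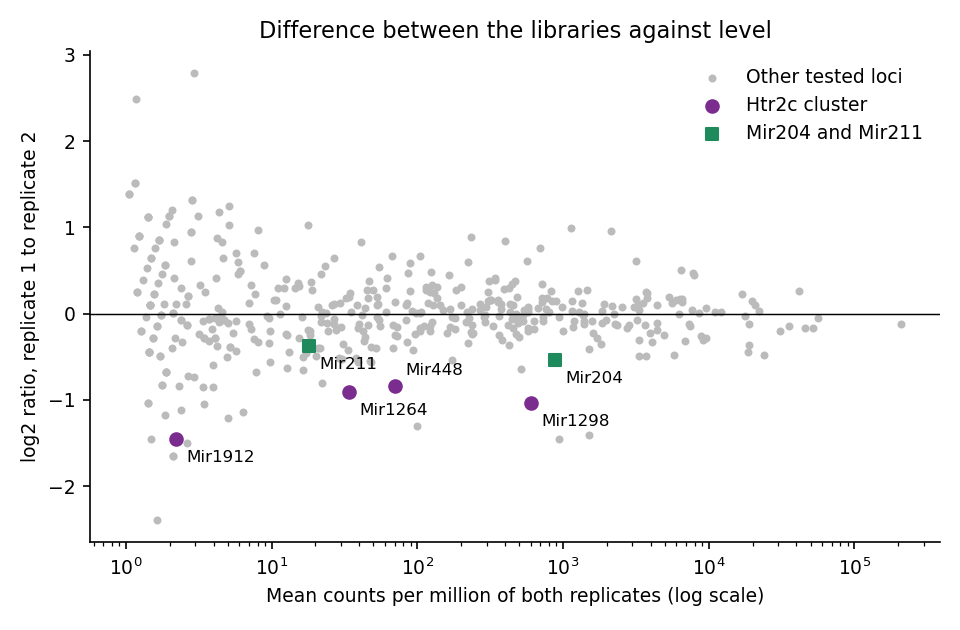
log2 ratio of replicate 1 to replicate 2 against mean CPM (log axis) for the 466 tested loci, with Htr2c hairpins as purple circles, Mir204 and Mir211 as green squares and other loci in grey. Mir1298, Mir1264 and Mir448 lie between -1.03 and -0.83, and Mir1912 lies among loci of few counts that scatter widely.

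No difference between the libraries in the make-up of the cluster was detected at this depth. Shares within the cluster do not depend on how the libraries are scaled. Mir1298 held 84.1% of cluster counts in replicate 1 (82.6 to 85.5) and 85.4% in replicate 2 (84.1 to 86.7). Mir448 held 10.7% (9.48 to 11.9) and 9.47% (8.41 to 10.6), and Mir1264 held 4.99% (4.17 to 5.92) and 4.68% (3.92 to 5.54). Mir1912 held 0.201% and 0.363%, and Mir764 held 0.0403% and 0.0363%. For each hairpin the intervals of the 2 libraries overlapped.

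Proportions between hairpins bound how far the make-up could have moved. The proportion of Mir448 to Mir1298 in replicate 2, divided by that in replicate 1, gave a quotient of 0.874 (exact conditional interval 0.726 to 1.05). The quotient was 0.923 (0.711 to 1.20) for Mir1264 to Mir1298 and 1.06 (0.774 to 1.44) for Mir1264 to Mir448. Each interval includes 1 and leaves out the 2.02-fold difference of the cluster as a whole. The Mir1912 interval, 0.552 to 6.63 relative to Mir1298, was too wide to say the same of it.

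**Figure D4:**
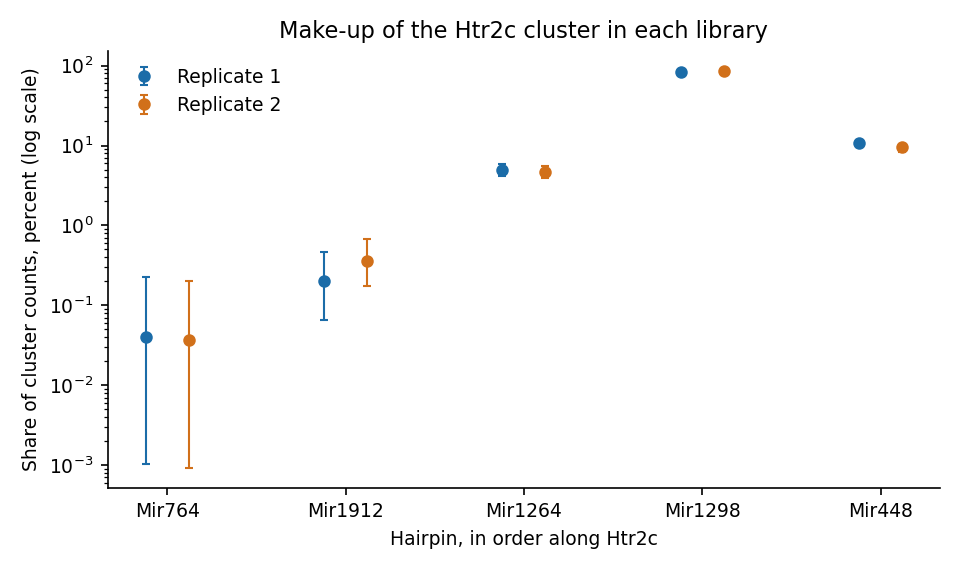
Share of all Htr2c cluster counts (percent, log axis) held by each hairpin, in order along the gene, in replicates 1 and 2, with 95% exact Clopper-Pearson intervals. Mir1298 holds 84.1% and 85.4%, and the intervals of the 2 libraries overlap for every hairpin.

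The proportion of cluster hairpins to Mir204 did differ between the libraries. Mir1298 stood at 55.8% of Mir204 in replicate 1 (52.8 to 58.8) and at 78.8% in replicate 2 (74.6 to 83.2). The quotient was 1.41 (1.31 to 1.53). It was 1.23 (1.03 to 1.48) for Mir448 and 1.30 (1.01 to 1.69) for Mir1264, and all 3 intervals lie above 1. Beyond counting error, Mir1298, Mir448 and Mir1264 thus differed more between the libraries than Mir204 did, whereas for Mir211 this was not detectable, as given above.

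Choroid plexus epithelium carries cilia, and microRNAs of the miR-34/449 family act in multiciliated cells. The list used held 5 loci of this family, Mir449a, Mir449b, Mir449c, Mir34b and Mir34c, all with a row and none at 0. Mir34a of the same family was not on the list. It had a mean of 52.8 CPM and a log2 ratio of replicate 1 to replicate 2 of 0.192, in the other direction, and was not called. The summed level of the 5 listed loci was 1312 CPM in replicate 1 and 2659 CPM in replicate 2. Mir449a held 4373 and 6360 counts, or 859 and 2166 CPM (1512 ± 925, SD, n = 2), with a log2 ratio of -1.40. Mir34c, at 438 and 469 CPM, had a ratio of -0.16. These 2 loci were called higher in replicate 2, Mir34c at a difference of less than 1.5-fold, and none of the 5 was called higher in replicate 1. Over all tested loci 38.0% were called and 19.3% were called higher in replicate 2. Whether this list held more calls than other loci was not tested. Mir34b (-0.50), Mir449b (-1.45) and Mir449c (-1.03) did not pass, the last with 4 and 6 counts and Mir449b with 3 and 7. The same quotient was 0.775 (0.722 to 0.832) for Mir1298 to Mir449a and 0.549 (0.515 to 0.584) for Mir204 to Mir449a. Mir449a thus differed more between the libraries than Mir1298, and Mir1298 more than Mir204.

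The 3 loci of at least 100 CPM whose ratio came nearest to that of Mir1298, over 1 pair of libraries, were Mir449a (0.368 log2 units away), Mir195a of the miR-15/16 family (0.396) and Mir375 of endocrine cells (0.416). Mir195a stood at 415 and 617 CPM with a ratio of -0.64, and Mir375 at 523 and 1365 CPM with a ratio of -1.45. The other 3 loci of the endocrine list were called higher in replicate 1. The choice of these 3 depended on the cutoff, since Mir122, at 99.1 CPM with a ratio of -1.30, was nearer to Mir1298 than any of them. A likeness over 2 libraries is 1 number per locus and orders loci only by that number.

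Markers of other cell types moved both ways between the libraries. Over all 466 tested loci, 38.0% were called and 19.3% were called higher in replicate 2. Whether any list below held more calls than other loci was not tested. Endothelial Mir126a stood at 16256 and 21170 CPM in replicates 1 and 2, and the 7 mural and mesenchymal loci summed to 8967 and 10823 CPM, with 4 of 6 tested loci called higher in replicate 2, 0 called higher in replicate 1 and Mir143 highest. The 8 neuronal loci summed to 9472 and 6604 CPM, nearly all of it Mir137, the only one of them called, higher in replicate 1. The others are numbered copies, among them Mir124a-1, Mir124a-2 and Mir124a-3 at means of 2.37, 9.31 and 1.64 CPM. Multimapping reads are in no locus count, so the levels of such copies can be too low, and how far was not tested. The 3 sensory epithelium loci, led by Mir183, summed to 2264 and 1730 CPM with 2 called higher in replicate 1, and the 7 other epithelial loci, led by Mir203, to 625 and 679 CPM with 2 called higher in replicate 2. The endocrine list, led by Mir7b, summed to 3110 and 2837 CPM. Of its 4 loci, 3 were called higher in replicate 1 and the other, Mir375, higher in replicate 2. The oligodendrocyte list, led by Mir219a-2, summed to 2488 and 2716 CPM with 1 of 3 higher in replicate 2. Erythroid loci, led by Mir451a, summed to 93.4 and 86.9 CPM with 1 of 3 higher in replicate 1, and the 3 leukocyte loci with a row, led by Mir223, to 319 and 349 CPM with 1 higher in replicate 2. No locus of these lists with a row was at 0 in both libraries. The part of these cell types in the difference of the Htr2c hairpins and Mir204 was not tested. In bulk tissue, more cells of a type and more RNA per cell cannot be told apart.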

How the data were processed

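The 2 midbrain libraries were deposited as raw read counts per gene, 1 table per replicate, on assembly mm10 with annotation M4, per the file headers (the description deposited with each table). No source used here names the aligner, the adapter trimming or the read filters. Each table has 3 count columns, the first being the sum of the others, and the column of same-strand counts was used, a reading inferred from the values. The 4 leading rows name no gene and stayed out of totals. Multimapping reads are in no locus count.

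Symbols and coordinates came from GENCODE M21, which matched 1894 of 1973 identifiers without their version. Sequences came from RefSeq (GRCm38.p6), which held hairpins for 6 of the 7 loci, all but Mir1264, and a mature strand for each of the 7. Promoters were not used.

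CPM was computed over all gene rows. TMM factors came from edgeR 4.0.16 (R 4.3.3) over loci with at least 10 counts. With 1 group no edgeR contrast exists, so an exact two-sided binomial test per locus, conditional on its total count and on TMM-scaled library sizes, was used (scipy 1.17.1), with Benjamini-Hochberg adjustment over 466 loci at 0.05. The procedure was tested on simulated data that held counting error only and were scaled to total counts. How it behaves with spread between libraries was not tested. log2 ratios use a pseudocount of 0.5 CPM. Quotients of proportions are conditional odds ratios with exact intervals.

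Members, marker lists and tests were chosen with earlier results of these data known. The text names all 7 members, the listed miR-34/449 loci, loci sharing a seed with a member, the 3 loci nearest to Mir1298 in ratio, and the highest locus of each marker list. Mir122, Mir34a and the other loci named in those lists were chosen after their values were seen. The alternatives tried were total counts, size factors from DESeq2 1.42.0, other count minimums, unstranded counts, thinning of replicate 1, another pseudocount, another denominator and each replicate left out. A required fold of 1.5 was added after seeing the data.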

Additional observations from a re-analysis of the deposited data

How the results depend on the processing

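Mir1298, Mir1264 and Mir448 kept their direction under all 8 alternatives and their call under the 7 that bear on it, with log2 ratios of replicate 1 to replicate 2 from -1.06 to -0.97, -0.92 to -0.80 and -0.91 to -0.77. Mir204 ranged from -0.54 to -0.47 and fell short of a required fold of 1.5, the alternative chosen after seeing the data. Under that alternative 34 loci were called in place of 177, and 4 members in place of 5. Mir1912 ranged from -2.27 to -0.51, and its call ended without a count filter and with scaling to total counts. At a minimum of 50 counts it was not tested. Mir211, from -0.38 to -0.20, did not pass in any of the 6 alternatives that ran the test again. The pseudocount alters the size of a ratio and has no part in the test, and the required fold used the same p-values.

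Without Mir99a, the most abundant locus, in the denominator, the level of every member rose by a similar proportion. Mir1298 stood at 768 CPM, Mir204 at 1110 CPM and Mir211 at 22.9 CPM. The rise was more than 1 SD only for Mir204 and Mir211, whose SDs were small beside their levels. With either replicate left out, the share of Mir1298 in the cluster was 84.1% or 85.4%. A ratio of the libraries has no value with a replicate left out. With 2 libraries of 1 group the spread between animals cannot be separated from that between libraries, and depth limits Mir764 and Mir1912 most.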

Other observations

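The Htr2c hairpins are X-linked, and both libraries came from pooled male and female embryos. The 39 other X-linked loci tested had a median log2 ratio of replicate 1 to replicate 2 of -0.04, from -1.21 for Mir450-1 to 0.67. Of these 39, 11 were called higher in replicate 2 and 7 higher in replicate 1 by the exact conditional binomial test. Over all 466 tested loci 38.0% were called and 19.3% were called higher in replicate 2. Whether X-linked loci held more calls than other loci was not tested. No source used here gives the sex ratio of each pool, and its part in the difference of the cluster was not tested.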
